A study of Mus musculus with 12 samples.

Results

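The inflammatory cytokines and NF-kB feedback genes described here are 10 genes chosen by symbol: Il1b, Il1rn, Tnf, Il6, Il11, Lif, Ptgs2, Nfkbia, Tnfaip3 and Icam1. All 10 were found among the 24421 genes of the stabilized table and all 10 were among the 18948 genes tested, so no member was lost to a filter on low values. RNA had been measured by bulk sequencing in 12 freshly isolated mouse libraries. Mesenchymal stem cells (MSCs) of p53 wildtype mice gave 3 libraries (WT MSC) and those of p53 knockout mice another 3 (KO MSC), obtained by a sort that kept CD45-, Ter119- and CD31- cells carrying LepR (the leptin receptor) and CD140a. The other 6 libraries came from sarcomas of bone or bone marrow in p53 knockout mice (KO tumor), and their RNA was extracted with TRIzol without a described sort, although they are labelled as tumor cells. The title speaks of mesenchymal loss of p53. The sources used here do not give the allele, any Cre driver, the age of the mice, or which libraries share an animal, so the spread behind each p-value is that among libraries and may be technical in part.

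NF-kB is a family of transcription factors held inactive in the cytoplasm by inhibitor proteins of the IkB group. Interleukin 1 and tumor necrosis factor activate a kinase complex that marks the inhibitor for breakdown, after which NF-kB enters the nucleus and turns on cytokines, adhesion molecules and its own brakes. Among those brakes are the inhibitor IkB alpha (Nfkbia) and the ubiquitin-editing enzyme A20, the product of Tnfaip3. Marrow stromal cells are known to answer inflammatory signals with cytokines that act on blood formation, and macrophages in tumors are a known source of interleukin 1 beta and tumor necrosis factor.

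Values are stabilized log2 values per gene (close to log2 expression where a gene has many reads, and levelling off at a floor where it has few), and levels of different genes were not compared because they are not corrected for gene length. A floor value shared exactly between libraries divided them into 2 batches. Batch 1 consisted of tumors 1 to 3 with the first library of each MSC group. The remaining 7 libraries formed batch 2. WT_MSC 1 and KO_MSC 1 shared 545 exact values with each other and 814 to 1799 with each tumor of batch 1. Those tumors shared 6725 to 6996 with each other. Fewer genes of WT_MSC 1 and KO_MSC 1 were thus at a shared floor, and differences within batch 1 of genes near the floor rest on these libraries. Read depth is unknown. The transcript of Trp53, the gene knocked out (chromosome 11, 69580359 to 69591873), was at 9.96, 10.04 and 10.61 in WT_MSC 1 to 3 but the libraries labelled KO_MSC 1 to 3 had 10.49, 9.76 and 6.96, and tumors 6.79 to 9.16. Trp53 RNA was therefore close to WT MSC in 2 of the 3 libraries labelled KO MSC, so comparisons with KO MSC are stated by label. Which part of Trp53 is changed is not stated in the labels, so this RNA alone cannot tell whether a library carries the knockout. The mean of 8 LepR+ stromal markers, Lepr, Pdgfra and Cxcl12 among them, was 11.34 to 13.63 in MSC libraries and 6.74 to 8.99 in tumors, and none of these markers was at the floor in any library.

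The start regions of 4 members are shown because NF-kB acts through kappaB sites and these are the 3 genes that passed a test in tumors and the second feedback inhibitor. The sequences are from RefSeq (build GRCm38.p6, the mm10 sequence), on the gene's strand, from 250 bases before to 50 bases after the start. Capitals mark matches on either strand to the kappaB consensus GGGRNNYYCC (R is A or G, Y is C or T, N any base).
Nfkbia, chr12:55492598-55492897, minus strand: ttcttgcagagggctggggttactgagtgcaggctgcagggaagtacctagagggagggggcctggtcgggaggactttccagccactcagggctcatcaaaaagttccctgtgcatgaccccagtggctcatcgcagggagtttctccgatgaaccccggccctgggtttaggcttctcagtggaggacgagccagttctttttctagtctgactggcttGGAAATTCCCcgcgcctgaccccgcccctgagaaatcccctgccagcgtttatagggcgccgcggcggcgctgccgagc
Tnfaip3, chr10:19015361-19015660, minus strand: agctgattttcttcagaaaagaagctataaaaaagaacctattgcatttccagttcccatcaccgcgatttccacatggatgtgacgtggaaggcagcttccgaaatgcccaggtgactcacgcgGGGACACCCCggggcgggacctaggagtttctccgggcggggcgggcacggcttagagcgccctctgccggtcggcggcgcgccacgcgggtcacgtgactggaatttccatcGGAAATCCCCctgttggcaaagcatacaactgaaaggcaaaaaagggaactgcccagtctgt
Icam1, chr9:21015690-21015989, plus strand: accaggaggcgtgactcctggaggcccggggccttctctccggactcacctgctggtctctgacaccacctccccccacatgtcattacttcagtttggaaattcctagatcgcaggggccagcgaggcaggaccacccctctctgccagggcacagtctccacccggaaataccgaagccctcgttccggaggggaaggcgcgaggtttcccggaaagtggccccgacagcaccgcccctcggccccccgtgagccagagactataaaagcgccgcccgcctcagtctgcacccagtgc
Il1rn, chr2:24336610-24336909, plus strand: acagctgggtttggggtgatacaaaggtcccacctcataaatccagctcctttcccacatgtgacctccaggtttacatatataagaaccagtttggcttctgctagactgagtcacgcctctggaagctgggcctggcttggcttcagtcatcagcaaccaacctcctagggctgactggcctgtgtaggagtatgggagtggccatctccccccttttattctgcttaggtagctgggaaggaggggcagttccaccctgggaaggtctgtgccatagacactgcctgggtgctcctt
Nfkbia held 1 match, on the opposite strand, that began at position -29, counted from the start. Tnfaip3 held 2 places with a match, at position -125 on both strands and at -12 on the opposite strand. Il6 also held 1 match (GGGATTTTCC, at -44) and Lif held 1 place that matched on both strands (GGGACGCCCC, at -178). In all, 4 of the 10 genes and 4 of their 14 listed start regions held a match, against 8.46% of the start regions of all genes. The letters TATAAA, searched on the gene's strand, were found in 4 of the 14 regions (Il1b, Icam1, Tnfaip3 and Tnf), against 8.32% of all. Icam1 and Il1rn had no match to this consensus in these windows, nor did the other 2 listed starts of Il1rn, which a value per gene cannot tell apart. Sites that depart from the consensus were not searched for, so the lack of a match does not mean the lack of a kappaB site. These matches are letters in a window and were not measured as binding.

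Il1rn and Icam1 had lower values in tumors than in wild-type MSCs. Nfkbia had higher values, but its call was lost under 14 alternative settings and kept under 6. The cytokine genes themselves showed small differences that did not pass. In tumors against WT MSC, limma called 3 of the 10 members (Il1rn and Icam1 lower, Nfkbia higher), against 21.3% of all genes tested, 10.4% higher and 10.9% lower. In tumors against the libraries labelled KO MSC it called 1 of 10, Il1rn, against 4.98% of all genes, 2.7% higher and 2.28% lower. In KO MSC against WT MSC it called 0 of 10 members and 0% of all genes. There, at an unadjusted p under 0.05, limma found Icam1 alone among the members and 1637 genes in all, or 8.64%. The median difference of the members was 0.39 in tumors against WT MSC, beside -0.06 over all genes, 0.21 beside 0.04 in tumors against KO MSC, and -0.35 beside -0.01 in KO MSC against WT MSC. The comparisons share libraries with each other, so their values are not independent of one another.

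**Figure D1:**
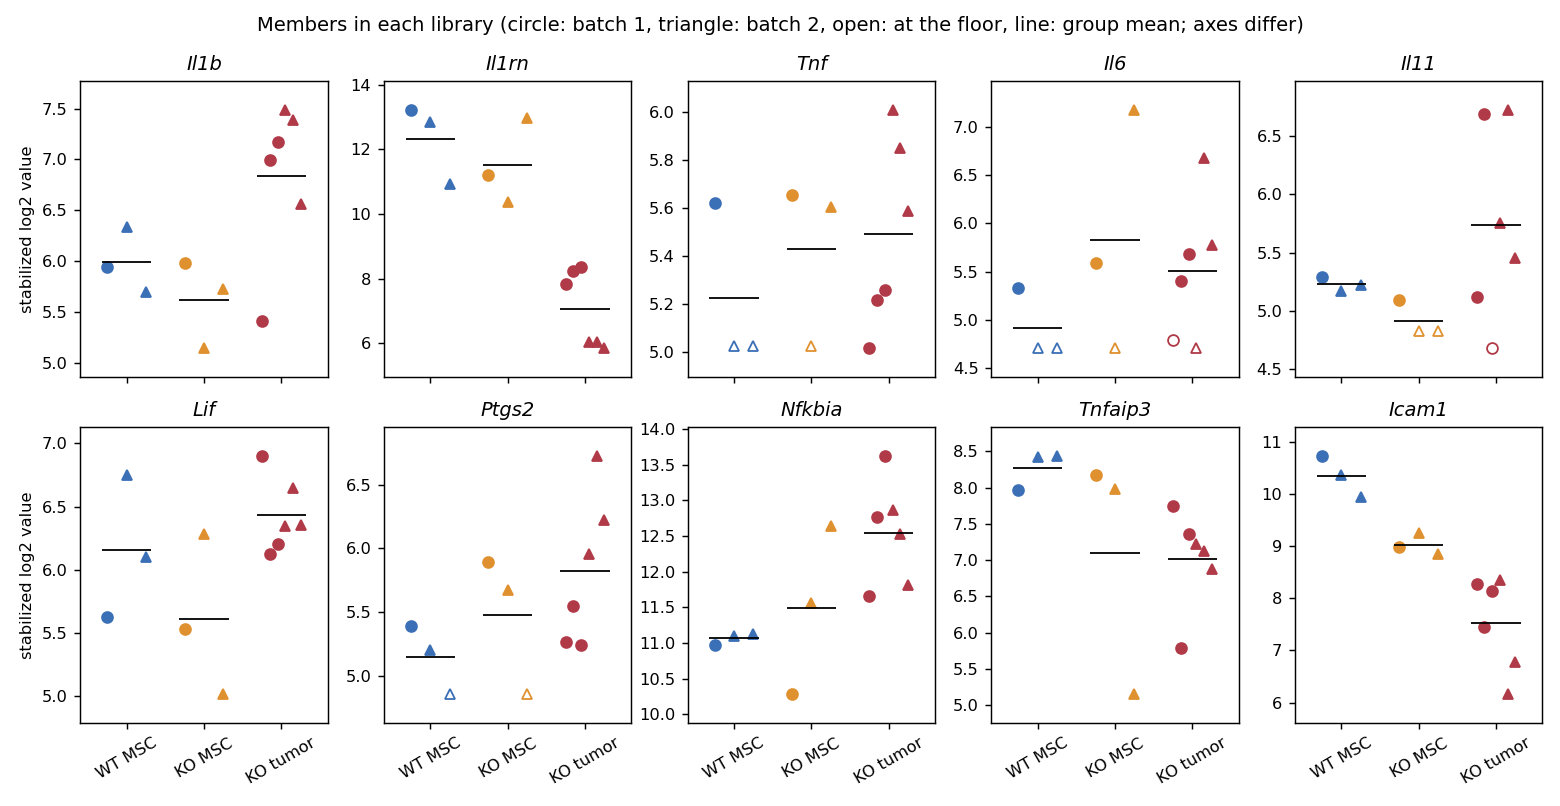
Stabilized log2 value (vertical axis, own range for each gene) of each member in every library, by group (horizontal axis); circles are batch 1, triangles batch 2, open symbols a value at the floor and lines group means. Il1rn and Icam1 are lower in all 6 tumors than in all 6 MSC libraries, and Tnf, Il6, Il11 and Ptgs2 lie at or near the floor in several libraries.

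Il1rn (chromosome 2, 24336853 to 24351494, plus strand) encodes the interleukin 1 receptor antagonist, a secreted protein that occupies the interleukin 1 receptor without activating it. Its value was 13.23, 12.85 and 10.92 in WT_MSC 1 to 3 and 11.22, 10.39 and 12.98 in the libraries labelled KO_MSC 1 to 3. Tumors 1 to 3 were at 7.83, 8.23 and 8.37, and tumors 4 to 6 at 6.02, 6.03 and 5.84. The 2 MSC groups overlapped widely, and every tumor lay below every MSC library. Il1rn fell by 5.28 ± 0.73 in the tumors compared with WT MSC (SE, n = 6 and 3; adjusted p = 0.00156, limma), 38.9-fold on this scale, with -5.09 and -5.92 within batches 1 and 2. Batch 1 holds 1 library of each MSC group, so a value within it has no MSC replicate. Against the libraries labelled KO MSC it fell by 4.47 ± 0.74 (adjusted p = 0.00913, limma), 22.2-fold, with -3.07 and -5.71 in batches 1 and 2. Without the library labelled KO_MSC 1 the difference was -4.63 and did not pass (adjusted p = 0.0635, limma). Without both KO_MSC 1 and KO_MSC 2, whose Trp53 values were close to WT MSC, it was -5.92. That fit has 1 KO MSC library left, and the difference did not pass in it. Between the MSC groups the difference was -0.81 ± 0.83 (adjusted p = 0.820, limma), and it was -2.02 within batch 1 and -0.21 within batch 2.

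Tumors differed among themselves in Il1rn along the batch. The mean was 8.14 ± 0.28 in the 3 tumors of batch 1 and 5.97 ± 0.11 in the 3 tumors of batch 2 (SD), with no overlap. Tumor number, batch and any real difference between these tumors cannot be told apart here. The stromal marker mean was also higher in tumors 1 to 3 (8.21 to 8.99) than in tumors 4 to 6 (6.74 to 7.39), and the mean of the 12 macrophage markers was lower (10.68 to 11.50 against 12.34 to 14.17). The genes most like Il1rn over the 12 libraries were Paqr8 (Pearson r = 0.990), the Wnt pathway activator Rspo2 (r = 0.983) and the secreted pattern-recognition gene Ptx3 (r = 0.978), among 8864 well-expressed genes. These correlations are descriptions over libraries that share group and batch.

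Il1b (chromosome 2, 129364570 to 129371139, minus strand) encodes interleukin 1 beta, the activating ligand of the same receptor. It was at 5.95, 6.34 and 5.70 in WT_MSC 1 to 3, at 5.98, 5.15 and 5.73 in those labelled KO_MSC 1 to 3, and between 5.42 and 7.49 in tumors (median 7.08). Tumor 1 lay among the MSC libraries and the other 5 tumors lay above them all. The difference was 0.84 ± 0.46 in tumors relative to WT MSC (adjusted p = 0.199, limma; 0.58 and 1.13 within batches 1 and 2) and 1.22 ± 0.50 against KO MSC (adjusted p = 0.167, limma; 0.55 and 1.71). Neither passed. Without tumor 1, the tumor that lay among the MSC libraries, the difference from WT MSC was 1.12 and passed (adjusted p = 0.0402, limma), and with library weights the difference from KO MSC was 1.58 and passed (adjusted p = 0.00900, limma). With those weights 4821 of all genes passed against KO MSC, where 944 did without weights. Under the other 19 alternatives against WT MSC and the other 20 against KO MSC, Il1b did not pass. The gene most like Il1b was Bbx (r = 0.920), followed by C5ar1, a complement receptor of myeloid cells (r = 0.892).

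Macrophage and granulocyte markers moved beside these 2 genes. Of 12 macrophage markers, C1qa, Csf1r and Cd68 among them, 12 rose in tumors against WT MSC and 11 against KO MSC, and their mean level was 10.68 to 14.17 in tumors and 5.07 to 6.63 in MSC libraries. None of the 12 was at the floor in any tumor, and 8 were at the floor in the library labelled KO_MSC 3. Of 9 neutrophil and granulocyte markers tested, whose cells also make the interleukin 1 receptor antagonist, 2 fell against WT MSC and 5 against KO MSC. Their mean was 5.33 to 7.95 in tumors and 6.95 to 11.68 in MSC libraries. Granulocyte means were 10.25, 8.81 and 6.95 in WT_MSC 1 to 3, in the same order as Il1rn. They were 11.68, 8.98 and 8.04 in those labelled KO_MSC 1 to 3, where KO_MSC 3 was highest in Il1rn. The sort of MSCs for CD45- cells is meant to remove macrophages and granulocytes, while the tumors have no described sort. The part of these cells in the 2 genes' values was not tested. In bulk libraries, fewer cells of a type and less RNA per cell cannot be told apart.

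**Figure D2:**
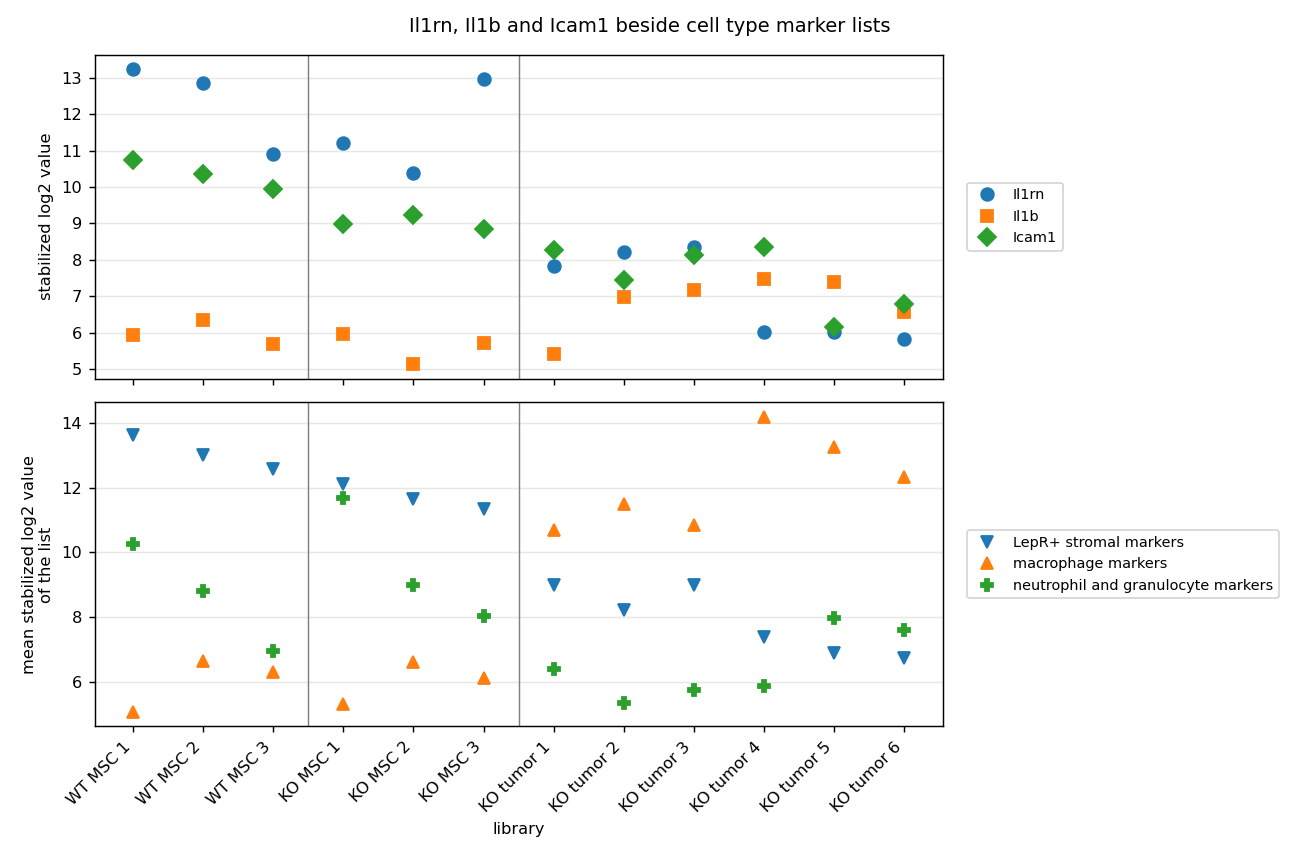
Upper panel, stabilized log2 values of Il1rn, Il1b and Icam1 in each of the 12 libraries; lower panel, mean stabilized log2 value of the LepR+ stromal, macrophage, and neutrophil and granulocyte marker lists in the same libraries, with vertical lines between groups. Il1rn is at 10.39 to 13.23 in MSC libraries and 5.84 to 8.37 in tumors, where macrophage markers are at 10.68 to 14.17.

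Tnf (chromosome 17, 35199381 to 35202007, minus strand), the gene of tumor necrosis factor, was low on this scale in every library. It was at 5.62, 5.03 and 5.03 in WT_MSC 1 to 3, at 5.65, 5.03 and 5.61 in those labelled KO_MSC 1 to 3, and between 5.02 and 6.01 in tumors (median 5.42). The 3 values of 5.03 were the floor of batch 2, while the floor of batch 1 was 4.48, so a library without Tnf reads would differ by 0.55 between the batches. That gap exceeds the pooled differences of 0.27 ± 0.26 against WT MSC (adjusted p = 0.474, limma) and 0.06 ± 0.28 against KO MSC (adjusted p = 0.915, limma). Within batches the signs were opposite. Against WT MSC the differences were -0.46 in batch 1 and 0.79 in batch 2, and against KO MSC they were -0.49 and 0.50. A change of Tnf was not detectable on this scale.

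The interleukin 6 family was represented by Il6, Il11 and Lif, whose products signal through the shared receptor chain encoded by Il6st and are made by stromal cells and by many tumors. Il6 (chromosome 5, 30013114 to 30019981, plus strand) was at the floor in 5 of the 12 libraries. It was at 5.33, 4.71 and 4.71 in WT_MSC 1 to 3, at 5.59, 4.71 and 7.18 in those labelled KO_MSC 1 to 3, and between 4.71 and 6.68 in tumors (median 5.54). Its highest value was in the library labelled KO_MSC 3, and all 3 groups overlapped. The difference from WT MSC was 0.91 ± 0.57 in KO MSC (adjusted p = 0.681, limma; n = 3 and 3), and leaving out KO_MSC 3 made it 0.23. Leaving out both KO_MSC 1 and KO_MSC 2 made it 2.26, a value that rests on KO_MSC 3 as the 1 KO MSC library left. In tumors it was 0.59 ± 0.39 against WT MSC (n = 6 and 3; adjusted p = 0.284, limma), with -0.03 and 1.01 in batches 1 and 2, and -0.32 ± 0.54 against KO MSC (adjusted p = 0.744, limma), with -0.30 and -0.22.

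Il11 (chromosome 7, 4772373 to 4782859, minus strand), a cytokine gene known in bone formation and fibrosis, had an SD of 0.83 among tumors, 0.06 among WT MSC libraries and 0.15 among KO MSC libraries. It was at 5.29, 5.17 and 5.22 in WT_MSC 1 to 3, at 5.09, 4.83 and 4.83 in those labelled KO_MSC 1 to 3, the last 2 at the floor, and at 5.12, 6.69, 4.68, 5.75, 6.73 and 5.45 in tumors 1 to 6. Tumors 2 and 5 lay more than 0.9 above the other 4, and tumor 3 was at its floor of 4.68. The KO MSC libraries lay below the WT MSC libraries without overlap, by 0.31 ± 0.14 (adjusted p = 0.588, limma). In tumors Il11 differed by 0.51 ± 0.43 from WT MSC (adjusted p = 0.413, limma; 0.21 and 0.78 within batches) and by 0.82 ± 0.43 from KO MSC (adjusted p = 0.243, limma; 0.41 and 1.15).

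Lif (chromosome 11, 4257557 to 4272514, plus strand), the gene of leukemia inhibitory factor, was at 5.63, 6.75 and 6.10 in WT_MSC 1 to 3, at 5.54, 6.29 and 5.02 in those labelled KO_MSC 1 to 3, and between 6.12 and 6.90 in tumors (median 6.35). Tumors covered a range of 0.78, and MSC libraries reached from below to nearly as high. Its difference was 0.27 ± 0.32 against WT MSC (adjusted p = 0.567, limma; 0.78 and 0.03 within batches) and 0.82 ± 0.38 against KO MSC (adjusted p = 0.197, limma; 0.87 and 0.80).

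Ptgs2 (chromosome 1, 150100031 to 150108227, plus strand) encodes the inducible cyclooxygenase that starts prostaglandin synthesis. It was at 5.39, 5.20 and 4.86 in WT_MSC 1 to 3 and at 5.90, 5.68 and 4.86 in those labelled KO_MSC 1 to 3, with WT_MSC 3 and KO_MSC 3 at the floor. Tumors 1 to 3 were at 5.27, 5.55 and 5.24, within the range of MSC libraries, and tumors 4 to 6 at 5.95, 6.73 and 6.22, above all of them. The pooled difference from WT MSC was 0.67 ± 0.34 (adjusted p = 0.167, limma), with -0.04 in batch 1 and 1.27 in batch 2. Against KO MSC it was 0.35 ± 0.39 (adjusted p = 0.603, limma), with -0.54 and 1.03. The floors of Ptgs2 differed by 0.21 between the batches.

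Nfkbia (chromosome 12, 55489410 to 55492647, minus strand) encodes IkB alpha, which is both the main inhibitor of NF-kB and one of its targets. It was at 10.97, 11.10 and 11.13 in WT_MSC 1 to 3, and at 10.28, 11.57 and 12.64 in those labelled KO_MSC 1 to 3. Tumors ranged from 11.66 to 13.63 (median 12.65). All 6 tumors were above all 3 WT MSC libraries, as in 12.9% of genes, while the KO MSC libraries reached from below the tumors to within their range. Nfkbia rose by 1.48 ± 0.45 in the tumors compared with WT MSC (SE, n = 6 and 3; adjusted p = 0.0410, limma), with 1.71 and 1.29 within batches 1 and 2. The call was lost without any 1 of WT_MSC 1, 2 or 3 (1.43 to 1.51; adjusted p = 0.112 to 0.133, limma) or of tumors 2, 3, 4 or 5 (1.26 to 1.48; adjusted p = 0.0519 to 0.0703, limma), with a batch term (1.45, adjusted p = 0.0646, limma), with all 3 groups in 1 fit (adjusted p = 0.0768, limma), with no filter (adjusted p = 0.0522, limma) and with quantile scaling (0.49, adjusted p = 0.421, limma). It was also lost in each batch alone and with the replicate number as a block. Against KO MSC the difference was 1.05 ± 0.60 (adjusted p = 0.285, limma), 2.40 and 0.30 within batches.

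Tnfaip3 (chromosome 10, 19000910 to 19015657, minus strand), the gene of the other feedback inhibitor, had values in tumors that lay on the other side of WT MSC. It was at 7.97, 8.42 and 8.44 in WT_MSC 1 to 3 and at 8.17, 7.98 and 5.15 in those labelled KO_MSC 1 to 3. Tumors ranged from 5.79 to 7.74 (median 7.17). All tumors lay below all WT MSC libraries, and the library labelled KO_MSC 3 stood below every other library. The tumors differed from WT MSC by -1.26 ± 0.42, which did not pass (adjusted p = 0.0545, limma; -1.0 and -1.36 within batches). It passed under 3 alternatives, among them without tumor 1 (-1.40, adjusted p = 0.0367, limma) and with the stricter minimum mean (-1.26, adjusted p = 0.0323, limma). Under the other 17 it did not pass. Against KO MSC it was -0.08 ± 0.68 (adjusted p = 0.954, limma), and -1.06 without the library labelled KO_MSC 3. The genes most like Nfkbia and Tnfaip3 over the 12 libraries differed, with Itm2b first for Nfkbia (r = 0.965) and Lrch1 first for Tnfaip3 (r = 0.968).

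Icam1 (chromosome 9, 21015985 to 21028817, plus strand) encodes an adhesion molecule to which leukocyte integrins bind, and it is a classic NF-kB target. It was at 10.73, 10.35 and 9.95 in WT_MSC 1 to 3, at 8.99, 9.24 and 8.84 in those labelled KO_MSC 1 to 3, and at 8.26, 7.44, 8.13, 8.36, 6.16 and 6.79 in tumors 1 to 6. No pair of groups overlapped, with WT MSC highest and tumors lowest. Icam1 fell by 2.82 ± 0.50 in the tumors compared with WT MSC (SE, n = 6 and 3; adjusted p = 0.00378, limma), 7.06-fold, with -2.79 and -3.05 within batches. The neighboring steps in that order did not pass, at -1.32 ± 0.36 in KO MSC against WT MSC (adjusted p = 0.551, limma; -1.74 and -1.11 within batches) and -1.50 ± 0.52 in tumors against KO MSC (adjusted p = 0.115, limma; -1.05 and -1.94). Both steps had the same sign in each batch, and both passed with library weights (-0.93, adjusted p = 0.0420, and -1.60, adjusted p = 0.00920, limma). With those weights 2447 and 4821 of all genes passed in these comparisons, against 0 and 944 without weights. Over the members, KO MSC lay wholly below WT MSC for 2 of 10, Icam1 and Il11, against 8.93% of all genes, and wholly above for 0, against 6.31%. Tumors lay wholly below KO MSC for Il1rn and Icam1, against 5.39% of genes, and wholly above for 0 members, against 8.0%. Tumors lay wholly below WT MSC for Il1rn, Icam1 and Tnfaip3, against 12.3% of genes. Neither batch passed alone in tumors relative to WT MSC (adjusted p = 0.0641 and 0.0652, limma). Of 10 endothelial markers, whose cells also carry Icam1, 8 rose in tumors against WT MSC and 5 against KO MSC, with a mean of 7.29 to 9.43 in tumors and 5.56 to 6.19 in MSC libraries. Of the 8 LepR+ stromal markers 8 fell against WT MSC (median -4.36) and 5 against KO MSC (median -2.76). The part of these cells in the value of Icam1 was not tested. The gene most like Icam1 was Nfkbie (r = 0.984), which encodes IkB epsilon.

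**Figure D3:**
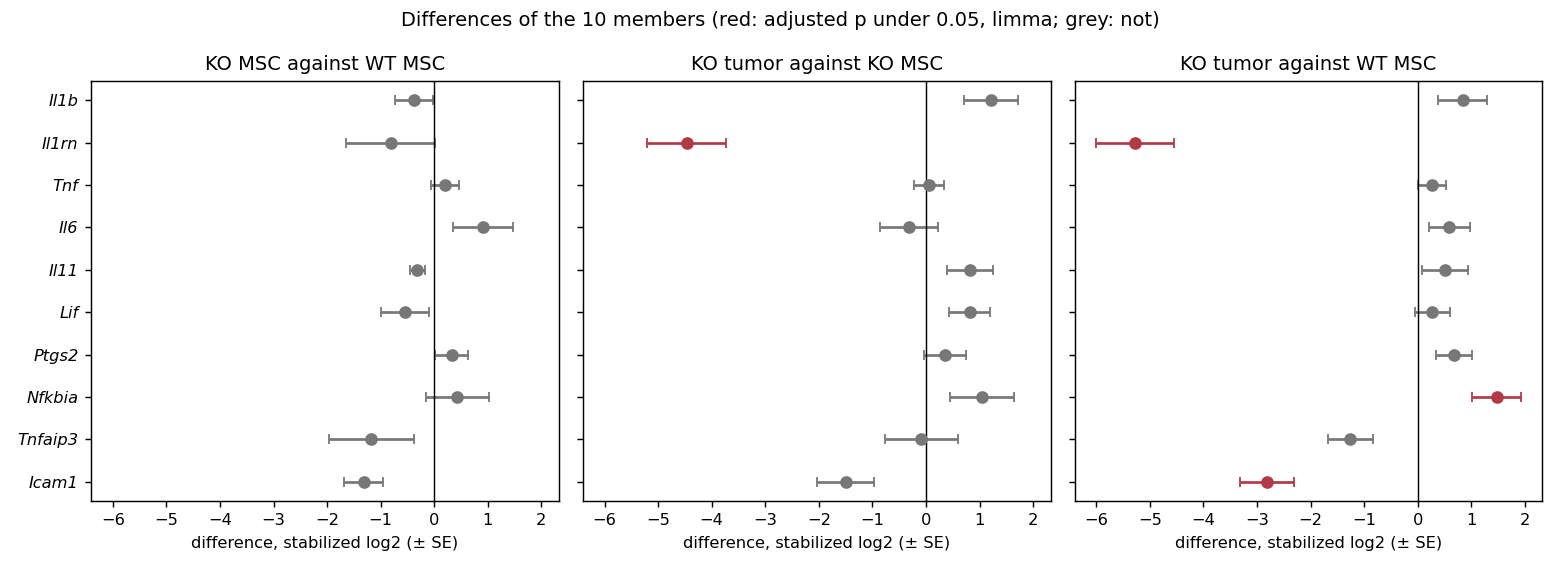
Difference of each member (stabilized log2, point, with its standard error) in the 3 comparisons, red where limma's adjusted p was under 0.05. Il1rn lies at -5.28 and -4.47 in the comparisons of tumors with WT and KO MSC, and no member is red in KO MSC against WT MSC.

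The other genes of the pathway were taken from 6 lists of 85 genes, of which 83 were tested. The counts of each list in tumors against WT MSC stand beside 10.9% of all genes called lower and 10.4% called higher. In tumors against WT MSC, every receptor and negative feedback gene that passed was lower, while 2 cytokines and 3 inducible genes were higher. The inducible gene Vcam1 and 3 subunit and activating signal genes were lower as well, and 1 prostaglandin gene was higher. Several of these calls were lost when single libraries were left out, as given below. The list of receptors of the member cytokines, prostaglandin E2 and Icam1 holds 16 genes. Osmr among them encodes a receptor chain of oncostatin M, which is not a member. Of the 16 genes, 6 fell, 0 rose and 10 did not pass in tumors against WT MSC (median -0.45). They included Il1r1, the receptor of interleukin 1 (-2.84 ± 0.42; within batches -2.86 and -3.11), Il6st, the shared receptor chain of the interleukin 6 family (-2.55 ± 0.49; within batches -2.43 and -2.74), Osmr (-2.77 ± 0.57; within batches -2.10 and -3.27) and Tnfrsf1a, a receptor of tumor necrosis factor (-2.09 ± 0.39; within batches -2.14 and -2.26). In the libraries labelled KO MSC, Osmr and Lifr, the receptor gene of leukemia inhibitory factor, were at -2.22 ± 0.53 and -1.84 ± 0.43 against WT MSC, and neither passed (adjusted p = 0.551 for each, limma). Of the 8 LepR+ stromal markers 8 fell in tumors against WT MSC and 5 against KO MSC, and their part in the values of the receptors was not tested.

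Of 13 other negative feedback genes 6 fell, 0 rose and 7 did not pass in tumors against WT MSC (median -0.73). The largest difference among them was that of Socs3, an inhibitor of cytokine receptor signaling (-4.47 ± 0.50; adjusted p = 0.000992, limma; within batches -4.46 and -4.76). Nfkbie was at -2.56 ± 0.49 (within batches -2.10 and -3.07), Zfp36, whose product speeds the decay of cytokine RNAs, at -2.02 ± 0.36 (within batches -2.29 and -1.92), and Irak3, a brake on interleukin 1 and Toll-like receptor signaling, at -1.99 ± 0.37 (within batches -1.93 and -1.93). Nfkbia thus had the opposite sign from these 4 passing brakes, and from Tnfaip3. Of 17 subunit and activating signal genes 3 fell and 14 did not pass (median -0.76), and 16 of the 17 had a difference below 0. The 3 were Traf2, Ripk1 and Chuk, at -1.66 ± 0.47, -1.23 ± 0.38 and -0.98 ± 0.28, and each missed the threshold without any 1 of the 3 WT MSC libraries (adjusted p = 0.0688 to 0.147, limma). Ripk1 also missed it without tumor 2, 3, 5 or 6 (adjusted p = 0.0566 to 0.0738, limma) and Chuk without tumor 3 (adjusted p = 0.0592, limma).

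The list of other cytokines, mainly of the interleukin 1, TNF and interleukin 6 families, also holds Il10 and Csf2, which belong to none of these families. Of its 12 tested genes 2 rose and 10 did not pass in tumors against WT MSC (median 0.07). Il18, a cytokine of the interleukin 1 family, rose by 2.96 ± 0.56 (within batches 2.95 and 3.12), and Ltb, which encodes lymphotoxin beta, rose by 1.77 ± 0.51, with 0.60 and 2.72 within batches. Ltb missed the threshold without any 1 of the WT MSC libraries or tumor 3, 5 or 6 (adjusted p = 0.0522 to 0.117, limma). The lymphocyte marker mean was 5.63 to 7.38 in tumors and 5.00 to 5.91 in MSC libraries, and its part in the value of Ltb was not tested. Of 7 other prostaglandin genes 1 rose, Ptgis, the prostacyclin synthase gene (3.74 ± 1.07), with 6 not passing (median 0.58). Ptgis missed the threshold without any 1 of the WT MSC libraries or tumor 1, 3 or 5 (adjusted p = 0.0516 to 0.102, limma).

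Of 18 other NF-kB-inducible genes 3 rose, 1 fell and 14 did not pass in tumors against WT MSC (median 0.18). Vcam1, an adhesion molecule gene that marks marrow stromal cells as well, fell by 4.44 ± 0.59 (within batches -5.06 and -4.34), beside the fall of Icam1. The monocyte chemokine gene Ccl7 rose by 4.15 ± 0.95 (within batches 3.34 and 4.93), Cd40, a receptor of antigen-presenting cells, by 3.0 ± 0.55 (within batches 2.11 and 3.85) and Sod2, a mitochondrial antioxidant enzyme gene, by 1.10 ± 0.35. The lowest and the median value of Cd40 in WT MSC were both 5.01, a floor value, so its rise is measured in part from the floor. Ccl7 missed the threshold without WT_MSC 1 (adjusted p = 0.0545, limma) or WT_MSC 3 (adjusted p = 0.0535, limma). Sod2 missed it without any 1 of the WT MSC libraries or tumor 1, 2, 3 or 6 (adjusted p = 0.0620 to 0.185, limma) and with quantile scaling (0.51, adjusted p = 0.306, limma). The passing genes named from the lists had the same sign in both batches. In tumors against the libraries labelled KO MSC, 5 of the 83 genes passed, a share near the 4.98% of all genes. Socs3 (-2.88 ± 0.51), Il1r1 (-1.95 ± 0.48) and Vcam1 (-3.52 ± 0.55) fell, and Ccl7 (4.51 ± 0.99) and Cd40 (2.94 ± 0.60) rose. Without the library labelled KO_MSC 1 none of the 5 passed (adjusted p = 0.0592 to 0.170, limma), and without KO_MSC 2 neither Il1r1, Ccl7 nor Cd40 passed (adjusted p = 0.0542 to 0.164, limma). Il1r1 also missed the threshold without any 1 of tumors 2 to 6 (adjusted p = 0.0570 to 0.0778, limma). In KO MSC against WT MSC limma called 0 of the 83 genes.

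**Figure D4:**
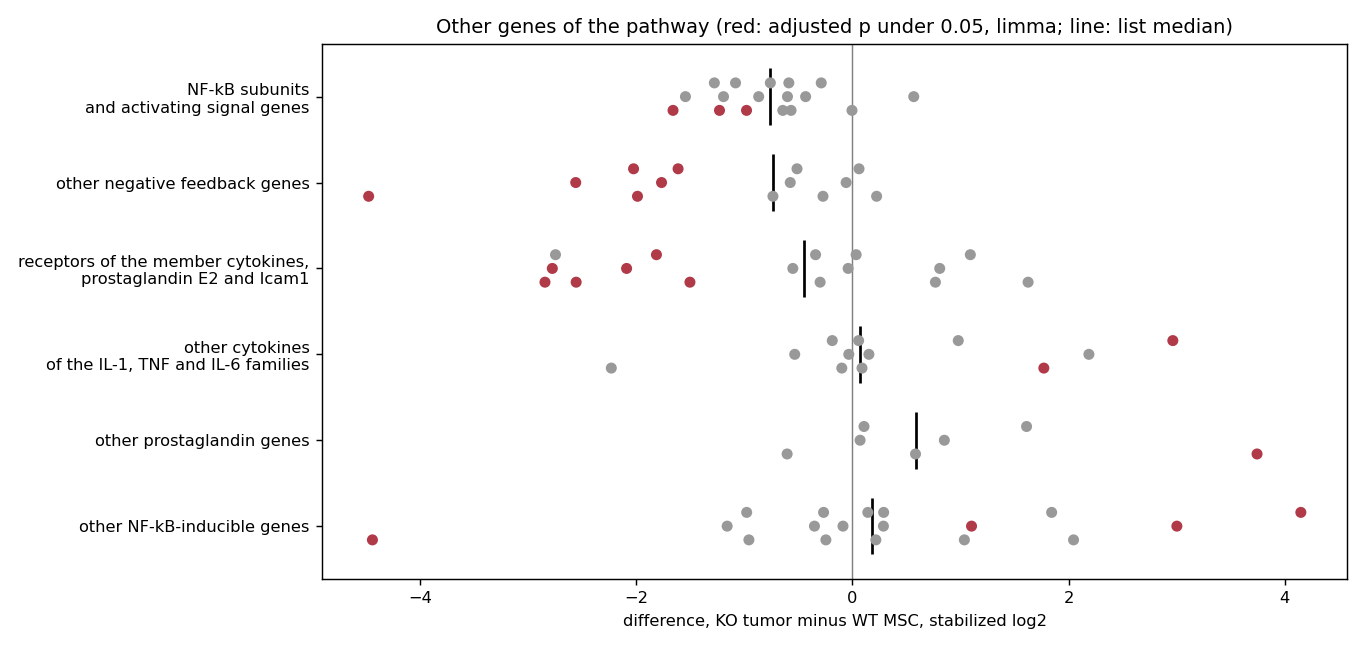
Difference in tumors against WT MSC (horizontal axis, stabilized log2) of each tested gene of the 6 pathway lists (vertical axis), red where limma's adjusted p was under 0.05, with the median of each list as a black line. Red points of the receptor and negative feedback lists all lie below 0, and those of the other cytokine and prostaglandin lists all lie above 0.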

How the data were processed

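The authors deposited 2 tables with 12 library columns each. One holds stabilized log2 values of 24421 genes, titled by the authors as batch-adjusted. The other is titled as normalized counts, but its deposited values are a score: the log2 value times 100, rounded, then scaled by 1 factor per library, in 100% of 18949 genes (tolerance 0.01). The build mm10, Cuffdiff, Cufflinks 2.2.1 and TopHat2 2.0.13 are named per the submitters' processing notes; the steps to these values are not stated there. Per the labels' protocols, cDNA was made with SMART-Seq v4. Reads could not be recovered, so depth is unknown and no counting interval is given.

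Groups were fitted in pairs with limma 3.58.1 in R 4.3.3 (lmFit, then eBayes with trend; two-sided; without covariates), on the 18948 genes of the second table that varied, with Benjamini-Hochberg adjustment over all of them and a threshold of 0.05. The fit was also run on simulated independent normal values without batches or a floor. That run cannot show whether the p-values here are of the right size. Batches were read from exactly shared values. A floor was the lowest value shared by libraries of a batch (tolerance 1e-05), mirrored about the common floor of 4.75 for the other batch. The authors' batch adjustment is not modelled, so p-values can be too small. Coordinates are from GENCODE M21. The members and lists were chosen with earlier results of these data known. Named genes were the members, Trp53, up to 4 passing genes per list and comparison (up to 2 with the smallest p where none passed), and the 3 genes most correlated with a member among genes with a mean of at least 7. Not every gene so chosen is printed. Alternatives were the other table, no filter, a mean of at least 6, quantile and upper-quartile scaling, a batch term, each batch alone, all groups in 1 fit, a replicate block, library weights and leaving out each library. Leaving out both KO_MSC 1 and KO_MSC 2 was added after seeing the data.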

Additional observations from a re-analysis of the deposited data

Results flagged for a closer look

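Of 39 genes checked for a tumor that stood apart from the other 5, 3 were picked out, and chance does so in about 1 of 20 groups. None was a member. Ptgis was at 6.78 in tumor 2 and between 10.98 and 13.22 in the other 5 tumors. Birc3, an inhibitor of cell death induced by NF-kB, was at 7.64 in tumor 2 and between 8.15 and 8.39 in the others. Traf2, an adaptor of tumor necrosis factor receptors, was at 6.77 in tumor 5 and between 8.47 and 9.28 in the others.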

How the results depend on the processing

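The falls of Il1rn and Icam1 in tumors against WT MSC kept their direction under every alternative. Il1rn passed in all of them, and Icam1 in all but the single batches (adjusted p = 0.0641 and 0.0652, limma). Batch 1 alone has 1 library of each MSC group, and without both KO_MSC 1 and KO_MSC 2 there is 1 KO MSC library. Such a lone library is assumed to vary like the other group. Members passing numbered 0 in KO MSC against WT MSC, but 3 with library weights and 2 without both KO_MSC 1 and KO_MSC 2. In tumors against KO MSC they numbered 1, but 3 with library weights, 0 without both KO_MSC 1 and KO_MSC 2, and 0 to 1 when single libraries were left out. In tumors against WT MSC they numbered 3, but 1 in batch 1 alone, 1 in batch 2 alone, 5 with library weights, and 2 to 5 when single libraries were left out. With library weights, Il11, Ptgs2 and Icam1 passed in KO MSC against WT MSC, Il1b and Icam1 were added in tumors against KO MSC, and Il6 and Tnfaip3 in tumors against WT MSC. The weights did not converge in 2 of the 3 comparisons.

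Over all genes, 0 passed in KO MSC against WT MSC, but 2447 with library weights and 3171 without both KO_MSC 1 and KO_MSC 2. In tumors against KO MSC 944 passed, but 1487 with a mean of at least 6, 1481 with quantile scaling, 3277 in batch 1 alone, 229 in batch 2 alone, 1923 with all 3 groups in 1 fit, 4821 with library weights, 94 without both KO_MSC 1 and KO_MSC 2, and 113 to 1627 when single libraries were left out (113, 396 and 1627 without KO_MSC 1, 2 and 3, and 597 and 621 without tumors 5 and 6). Of those called there 54.2% were higher (512 higher, 432 lower), and 35.1% with quantile scaling (520 higher, 961 lower). In tumors against WT MSC 4033 passed, but 775 in batch 2 alone, 6821 with library weights and 1856 to 4737 when single libraries were left out (1856, 2339 and 2268 without WT_MSC 1, 2 and 3). Upper-quartile centring moved the median of all genes from -0.06 to 0.05 there, and from -0.01 to 0.09 in KO MSC against WT MSC. The causes were not tested.

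Signs turned only for differences that had not passed. In tumors against KO MSC, Tnf was at -0.30 with quantile scaling, -0.49 in batch 1 alone, -0.12 without both KO_MSC 1 and KO_MSC 2 and -0.14 to 0.17 with single libraries left out. Ptgs2 was at -0.54 in batch 1 alone, Ptgs1 at -0.51 there, Tnfaip3 at 0.51 in batch 2 alone, Il6 at 0.65 with library weights, and without both KO_MSC 1 and KO_MSC 2 Tnfaip3 was at 1.87, Nfkbia at -0.0997 and Trp53 at 0.92. With single libraries left out Il6 ranged from -0.88 to 0.36 and Tnfaip3 from -1.06 to 0.45. In tumors against WT MSC, Il6, Tnf and Ptgs2 were at -0.033, -0.46 and -0.040 in batch 1 alone. In KO MSC against WT MSC, Ptgs2 and Il1rn were at -0.29 and 0.64 without both KO_MSC 1 and KO_MSC 2, and Nfkbia ranged from -0.14 to 1.04 with single libraries left out. Batch 1 alone, 1 library against 1 with no test, gave -0.69 for Nfkbia, 0.21 for Tnfaip3, 0.53 for Trp53 and 0.03 for Il1b, each of the other sign than the pooled difference.

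With the replicate number as a block, which leaves 3 pairs, members passing numbered 0, 0 and 2 and all genes 0, 47 and 1194 in KO MSC against WT MSC, tumors against KO MSC and tumors against WT MSC. Tnf was then at -0.26 against KO MSC and -0.059 against WT MSC, and Ptgs2 at -0.13 against KO MSC, and Il1rn at -3.38 against KO MSC (adjusted p = 0.0888, limma). The block does not pair the samples: same-numbered libraries had correlated deviations from -0.32 to 0.24, below 0.1 in at least 1 pair of each comparison. Depth is unknown, and the flattened scale limits what can be seen of Tnf, Il6, Il11 and Ptgs2. Il1b and Lif were at the floor in no library but were also low, so their differences can be flattened too.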

Other observations

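The balance of interleukin 1 antagonist and ligand RNA was computed within each library as the value of Il1rn minus that of Il1b, a measure chosen after their values were seen. Only its change between groups can be read, since gene lengths differ. It was 7.28, 6.51 and 5.22 in WT_MSC 1 to 3, and 5.24, 5.24 and 7.25 in the libraries labelled KO_MSC 1 to 3. In tumors 1 to 3 it was 2.42, 1.24 and 1.20, and in tumors 4 to 6 it was -1.47, -1.35 and -0.72. Every tumor lay below every MSC library, and the tumors of batch 2 lay below those of batch 1. The mean was 0.22 ± 1.61 in tumors, 6.34 ± 1.04 in WT MSC and 5.91 ± 1.16 in KO MSC (SD), a difference of -6.12 from WT MSC and of -5.69 from KO MSC. No test is given, since Il1rn alone already separated every tumor from every MSC library. Of the difference from WT MSC on this scale, -5.28 came from Il1rn. The rest came from the difference of 0.84 in Il1b, which had not passed by itself.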
